A study of Homo sapiens with 8 samples.

Results

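The Wnt ligands, receptors and antagonists were the 46 protein-coding genes, of 58395 genes listed, whose symbols name a WNT ligand (19 genes), a frizzled receptor (10), the co-receptors LRP5 and LRP6, the alternative receptors ROR1, ROR2 and RYK, a DKK (4) or SFRP (4) antagonist, or an R-spondin (4 RSPO genes). They were chosen by symbol and biotype alone, without use of their counts. The material was human dopaminergic neurons made from induced pluripotent stem cells and sold as iCell DopaNeurons, kept on coverslips for 4 days with 1 change of medium on the day after seeding. The 4 libraries labelled GDNF came from neurons on a nanostructure that mimics glial cell line-derived neurotrophic factor. The 4 libraries labelled CT are read here as its scrambled form, the comparator the study design names, since the labels do not spell CT out. Every sample carries the same treatment label of 10.73 mM, and 1 commercial cell product was used. The study design speaks of 3 biological replicates per condition, while 4 numbered libraries per group are analysed here. The labels do not say whether they came from separate cultures, and each p value therefore reflects library-to-library spread alone, possibly technical.

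WNT proteins are lipid-modified signals that bind a frizzled receptor together with LRP5 or LRP6 and thereby stabilise beta-catenin, which enters the nucleus and activates genes with TCF and LEF factors. Other WNT signals run through frizzleds, ROR1, ROR2 or RYK without beta-catenin and guide cell polarity and axons. SFRP proteins bind WNT ligands outside the cell, DKK1, DKK2 and DKK4 bind LRP5 and LRP6, and R-spondins keep frizzleds on the cell surface by removing the ligases that degrade them. In mice, Wnt1 is needed for the formation of midbrain dopaminergic neurons, and Wnt5a takes part in the shaping of the midbrain that holds them.

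Start-site sequences from RefSeq (GRCh38.p14) were matched for 32 of the 46 genes. The 250 bases before the start are shown for 4 of them, on the strand of the gene and 5′ to 3′. DKK1 is shown because it held the only match to the forms of a TCF and LEF motif that were searched. WNT9A and WNT3A are shown because they are chromosomal neighbours with unequal levels, and LRP5 as a co-receptor that the results below turn on. Capitals mark the motif, CTTTGAA or CTTTGAT on either strand, and other forms of it were not searched. The other sequences hold no match and are in lower case. They lie at chr10:52314031-52314280 on the plus strand (DKK1), chr1:227947933-227948182 on the minus strand (WNT9A), chr1:228006748-228006997 on the plus strand (WNT3A) and chr11:68312341-68312590 on the plus strand (LRP5).
DKK1: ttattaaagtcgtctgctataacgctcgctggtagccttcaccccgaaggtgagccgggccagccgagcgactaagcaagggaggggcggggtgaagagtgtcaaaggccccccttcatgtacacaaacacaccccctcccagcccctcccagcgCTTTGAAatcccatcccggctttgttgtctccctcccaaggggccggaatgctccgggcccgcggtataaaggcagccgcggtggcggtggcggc
WNT9A: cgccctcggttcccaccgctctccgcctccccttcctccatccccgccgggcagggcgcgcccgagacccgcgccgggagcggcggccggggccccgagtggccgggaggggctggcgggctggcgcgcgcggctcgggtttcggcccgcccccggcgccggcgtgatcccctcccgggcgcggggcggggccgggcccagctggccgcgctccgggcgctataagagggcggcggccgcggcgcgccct
WNT3A: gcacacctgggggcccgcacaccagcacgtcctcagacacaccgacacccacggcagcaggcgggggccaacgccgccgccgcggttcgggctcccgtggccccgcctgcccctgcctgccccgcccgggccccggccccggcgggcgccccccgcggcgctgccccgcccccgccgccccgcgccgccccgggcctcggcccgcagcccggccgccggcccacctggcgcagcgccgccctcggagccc
LRP5: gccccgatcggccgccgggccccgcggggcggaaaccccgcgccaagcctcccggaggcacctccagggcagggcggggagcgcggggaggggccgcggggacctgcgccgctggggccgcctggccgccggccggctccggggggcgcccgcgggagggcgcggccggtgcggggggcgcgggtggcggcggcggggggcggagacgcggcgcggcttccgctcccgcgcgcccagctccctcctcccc
In the full windows, 300 bases from 250 before to 50 after the start, 1 of the 35 promoters of the 32 matched genes (2.86%) held the motif, against 6.86% of 35116 promoters of the same length. These shares were not matched for GC content, whose median was 72.7% in the 35 promoters and 58.7% in all. Genes without a matched sequence included DKK3, FZD3, WNT10B, SFRP1 and LRP6. The DKK1 match begins 95 bases before the start. Of the 250 bases shown, 62.8% were G or C in DKK1, 84.4% in WNT9A, 86.0% in WNT3A and 87.2% in LRP5. A match describes the letters only.

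Total counts were 28698283 to 34559240 per library, and where a gene had 0 counts the upper limit on its level was 0.0855 to 0.104 CPM, depending on the library (3 counts, counting error only). CPM are counts scaled to a common library size. Levels are given as CPM, or as CPM per kb of exonic length where genes are compared with each other. The 12 midbrain dopaminergic markers summed to 1990.0 to 2790.0 CPM over CT libraries and 2055 to 2419 CPM over GDNF libraries. Of the 12, 11 averaged at least 1 CPM (ALDH1A1 did not). The highest were LMX1B, DDC and LMX1A (means 811, 335 and 326 CPM), followed by TH (220 CPM). SLC18A2 averaged 17.5 CPM and PITX3 2.37 CPM. Summed neuronal markers were 6368 to 9131 CPM in CT and 7856 to 9081 CPM in GDNF. Of 7 astrocyte markers 2 reached 1 CPM, with sums of 3.75 to 6.10 CPM in CT and 3.58 to 5.14 CPM in GDNF. Of 9 fibroblast and meningeal markers 4 did, and the 9 summed to 55.7 to 82.5 and 65.8 to 82.9 CPM. The 4 were COL1A1, COL3A1, COL1A2 and TWIST1, with means of 26.0, 19.5, 15.6 and 5.85 CPM over 8 libraries. LUM, DCN, PDGFRA, PDGFRB and FOXC1 stayed under 1 CPM. Of 9 progenitor markers 6 reached 1 CPM, while PAX6, HES5 and MSX1 averaged under 1 CPM. The 9 summed to 469.9 to 574 CPM in CT and 451 to 611 CPM in GDNF. Most of this sum came from VIM and NES, with means of 310 and 188 CPM over 8 libraries. The proliferation markers MKI67 and TOP2A averaged 1.12 and 1.36 CPM. Choroid plexus and roof plate markers summed to 351 to 397 CPM in CT and 344 to 384 CPM in GDNF. Most of that sum came from LMX1A (mean 326 CPM) and OTX2 (33.6 CPM). LMX1A and MSX1 are also in other lists, FOLR1 had 0 counts in all libraries, and AQP1, CLIC6, MSX1 and KCNJ13 averaged under 1 CPM. Oligodendrocyte markers summed to 48.7 to 53.3 and 47.2 to 54.5 CPM, mostly MBP (mean 48.1 CPM), with MOG, SOX10 and OLIG2 under 1 CPM. Microglial and endothelial markers summed to 1.13 to 2.29 and 0.873 to 2.08 CPM. The groups overlapped in each of these 8 sums. In bulk samples fewer cells of a type and less RNA per cell cannot be told apart.

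CT replicate 2 was unlike the rest, with a median correlation of log2 CPM of 0.969 to the other libraries, against 0.991 or more for each other library. Its counts deviated with the GC content of the transcript, and the fold changes of the genes described library by library are therefore given with and without it.

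A few Wnt components made up most of the signal of their class in these libraries. No gene of the set passed the test for a difference between the coatings (0% of 19999 tested genes passed). None had groups that did not overlap (0.93% of tested genes had). Of the 46 genes, 33 passed the filter on low counts, 25 averaged at least 1 CPM and 12 at least 10 CPM. Together the 46 genes held 0.119% of all counts. The secreted protein DKK3 led by far, followed per kb by the ligand WNT4, the receptor FZD3, the ligand WNT10B, the receptor FZD1, the antagonist SFRP1 and the co-receptors LRP6 and LRP5. The 13 genes that did not pass the filter had 4 to 61 counts over all 8 libraries and no more than 12 in any library, and their means were at most 0.242 CPM. They were the ligands WNT1, WNT2, WNT3A, WNT6, WNT8B, WNT10A and WNT16, with FZD10, ROR1, DKK4, SFRP2, RSPO1 and RSPO3.

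**Figure D1:**
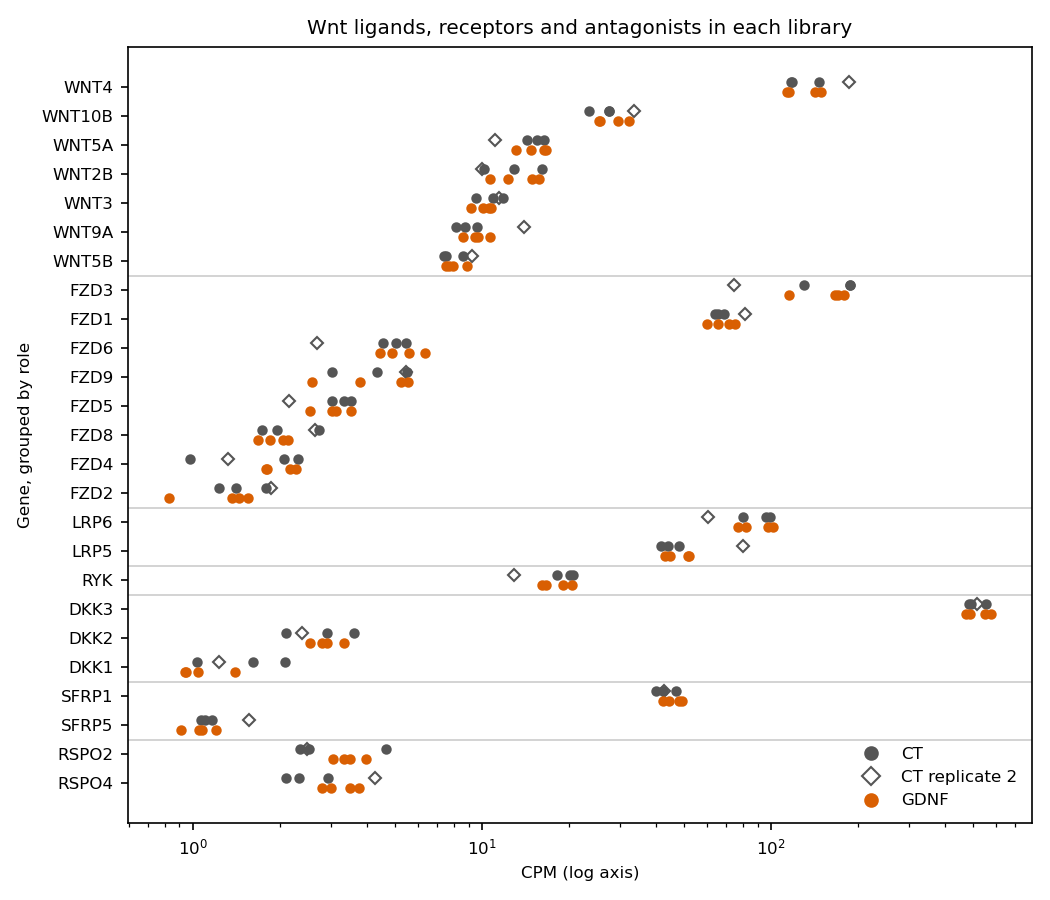
CPM (log axis) of the 25 genes with a mean of at least 1 CPM in each of the 8 libraries, grouped by role; grey circles are CT libraries, the open diamond is CT replicate 2, and orange circles are GDNF libraries. DKK3 lies at 471 to 576 CPM, and no gene has GDNF libraries that all lie on one side of the CT libraries.

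Among the ligands, WNT4, which acts in kidney and gonad formation, was the most abundant. Its gene (ENSG00000162552, chromosome 1, 22117305 to 22143969 in GRCh38) had 118, 186, 147 and 117 CPM in CT replicates 1 to 4 and 116, 113, 149 and 142 CPM in GDNF replicates 1 to 4. The groups overlapped, and CT replicate 2 was the highest library. The log2 fold change of GDNF over CT was -0.13 (95% confidence interval -0.51 to 0.25), and 0.03 without CT replicate 2. Per kb, WNT4 averaged 30.04 ± 5.56 (SD over 8 libraries) CPM and made up 54.5% to 62.6% of the summed ligand level in single libraries (up to 60.5% without CT replicate 2).

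WNT10B, a ligand of the beta-catenin branch, came next at 10.7 ± 1.33 CPM per kb, lower than WNT4 in 8 of 8 libraries. The gene (chromosome 12, 48965340 to 48971763) had 27.5, 33.7, 27.6 and 23.5 CPM in CT and 25.7, 25.5, 29.6 and 32.3 CPM in GDNF. The 2 groups covered nearly the same range, with a log2 fold change of 0.01 (-0.31 to 0.33), and 0.11 without CT replicate 2. WNT4 and WNT10B together made up 75.5% to 82.1% of the summed ligand level per kb (up to 81.2% without CT replicate 2).

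The next 5 ligands formed a lower tier at 1.02 to 2.48 CPM per kb, namely WNT9A, WNT3, WNT5A, WNT5B and WNT2B. WNT5A, a ligand that acts mainly without beta-catenin, had a mean of 14.4 ± 2.32 CPM in CT, beside 15.3 ± 1.64 CPM in GDNF (n = 4 each). Its close relative WNT5B averaged 8.18 ± 0.891 and 8.01 ± 0.606 CPM. WNT3, a ligand of the beta-catenin branch, averaged 10.9 ± 1.01 and 10.1 ± 0.733 CPM, WNT9A 10.1 ± 2.64 and 9.60 ± 0.839 CPM, and WNT2B 12.3 ± 2.88 and 13.4 ± 2.31 CPM. Within the tier and per kb, WNT9A and WNT3 each lay above WNT5B in 8 of 8 libraries, and WNT5B above WNT2B in 8 of 8. Also per kb, WNT9A was above WNT3 in 3 of 8 libraries and above WNT5A in 6, WNT3 above WNT5A in 7, and WNT5A above WNT5B in 6, so these pairs had no fixed order. Before division by length WNT2B was the more abundant of WNT5B and WNT2B, with means of 8.09 CPM for WNT5B and 12.87 CPM for WNT2B over 8 libraries. The order of WNT5B over WNT2B thus rests on their annotated exonic lengths, 4.305 and 12.561 kb. All libraries share these lengths, so the count of libraries does not test them. WNT2B shares 21.2% of its exonic bases with the antisense gene ST7L, and the strand setting of the counting is not given in the sources used here, so its level is uncertain.

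WNT7A, WNT7B, WNT8A, WNT9B and WNT11 were detected at means of 0.352 to 0.698 CPM, 87 to 175 counts over 8 libraries. WNT1, the ligand tied to midbrain patterning in mice, had 19 counts in all and 0 counts in 2 libraries. WNT2 had 4 counts, all in CT, and WNT6 had 7 counts, all in GDNF, too few for a difference to be detectable at this depth.

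Of 4 pairs of WNT genes that are close neighbours on a chromosome, 3 were unevenly expressed. WNT9A averaged 9.86 CPM (8.12 to 13.96) whereas WNT3A, 59.2 kb away on the other strand, had 0 to 0.171 CPM. Their promoter sequences above are both rich in G and C. WNT10B averaged 28.2 CPM and WNT1, 6.69 kb away on the other strand, 0.0740 CPM. WNT3 averaged 10.5 CPM, while WNT9B, whose annotated gene starts 46 bases from it on the opposite strand, averaged 0.610 CPM. WNT6 and WNT10A, 6.13 kb apart on the same strand, reached at most 0.101 and 0.221 CPM in any library.

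Of the frizzleds, the receptors that WNT ligands bind, FZD3 and FZD1 dominated and made up 76.0% to 83.7% of the summed frizzled level per kb. FZD3, which is needed for the growth of major axon tracts in mice, had 188, 74.7, 130.0 and 187 CPM in CT and 170.2, 179, 167 and 116 CPM in GDNF (ENSG00000104290, chromosome 8, 28494205 to 28574268). The lowest library was CT replicate 2, and the next lowest GDNF replicate 4. Its log2 fold change was 0.12 (-0.46 to 0.70), and -0.09 without CT replicate 2.

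FZD1 (chromosome 7, 91264364 to 91271326) had 65.6, 81.4, 68.9 and 63.9 CPM in CT and 65.6, 59.9, 71.8 and 74.9 CPM in GDNF, with CT replicate 2 the highest. Its log2 fold change was -0.04 (-0.33 to 0.25), and 0.05 without CT replicate 2. Averaged over 8 libraries FZD3 and FZD1 were close per kb, at 10.98 ± 2.95 and 9.91 ± 0.983 CPM, and FZD3 was the higher in 5 of 8 libraries.

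FZD9, the next in order (chromosome 7, 73433783 to 73436120), had 4.33, 5.48, 5.52 and 3.02 CPM in CT and 2.59, 3.80, 5.24 and 5.53 CPM in GDNF. Its libraries were spread alike in both groups, and its log2 fold change was -0.10 (-0.69 to 0.49), and 0.00017 without CT replicate 2. FZD6, FZD2, FZD8, FZD5 and FZD4 followed at 0.250 to 1.20 CPM per kb. FZD6, which acts in planar polarity in mice, had a mean of 4.44 ± 1.22 CPM in CT, beside 5.33 ± 0.827 CPM in GDNF. FZD4, also the receptor for norrin, averaged 1.67 ± 0.624 and 2.01 ± 0.250 CPM, with PRSS23 antisense to 18.9% of its exons. FZD5 averaged 3.02 ± 0.607 and 3.06 ± 0.407 CPM, FZD8 2.27 ± 0.498 and 1.93 ± 0.209 CPM, and FZD2 1.58 ± 0.301 and 1.30 ± 0.322 CPM. FZD7 averaged 0.404 CPM, and FZD10 had 16 counts in all.

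The co-receptors LRP5 and LRP6, which beta-catenin signalling requires, were expressed at a like level per kb, 8.22 ± 2.01 and 8.40 ± 1.38 CPM. LRP5 (chromosome 11, 68312609 to 68449275) had 43.9, 79.7, 48.2 and 41.5 CPM in CT and 43.1, 44.8, 52.1 and 51.8 CPM in GDNF. LRP6 (chromosome 12, 12116025 to 12267012) had 96.4, 60.8, 80.2 and 99.1 CPM in CT and 101, 97.9, 82.0 and 76.6 CPM in GDNF. In CT replicate 2 LRP5 was the highest and LRP6 the lowest of the 8 libraries. Their log2 fold changes were -0.15 (-0.60 to 0.29) and 0.09 (-0.29 to 0.47), and without CT replicate 2 both changed sign, to 0.11 and -0.03.

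The ratio of LRP5 to LRP6 per kb was 2.20 in CT replicate 2 and 0.702 to 1.13 in the other 7 libraries. LRP6 was the higher in 4 of 8 libraries, so no order between them was seen before adjustment. After adjustment for GC content and transcript length, the ratio in CT replicate 2 was 0.957, and the 8 libraries lay at 0.907 to 1.05. Then LRP5 was the higher in CT replicate 3 and GDNF replicate 3 (ratios 1.01 and 1.05), and LRP6 in the others. The ratio of FZD3 to FZD1 was 0.463 in CT replicate 2 and 0.780 to 1.51 elsewhere before the adjustment, and 0.888 to 1.21 after it.

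**Figure D2:**
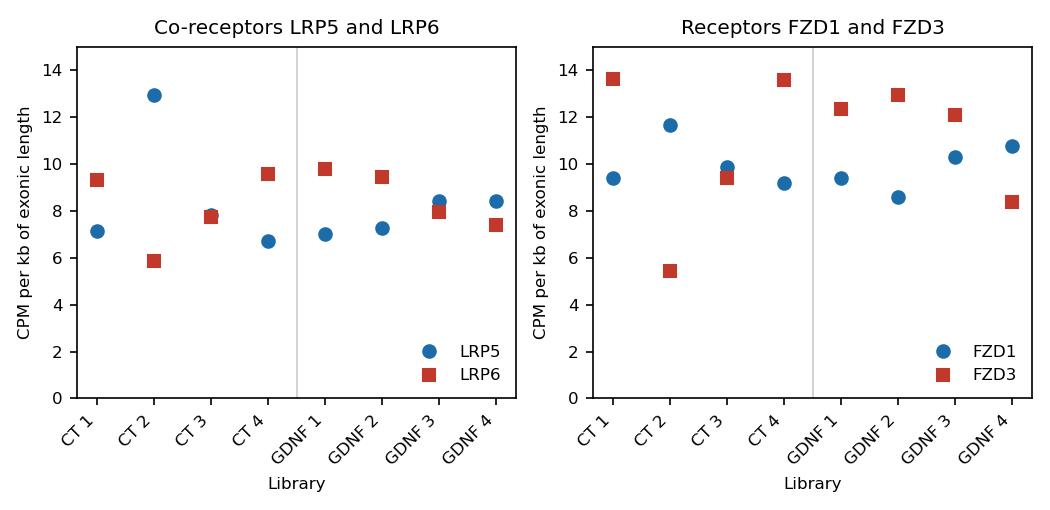
CPM per kb of exonic length of LRP5 and LRP6 (left) and of FZD1 and FZD3 (right) in each library; 1 point is 1 library, and the vertical line separates CT from GDNF. In CT replicate 2 LRP5 stands above LRP6 by a ratio of 2.20 and FZD3 below FZD1 by a ratio of 0.463, while the other libraries lie nearer to each other.

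Of the receptors outside the frizzled family, RYK, a kinase-like receptor of WNT signals, was the only one past 1 CPM. The gene (chromosome 3, 134065303 to 134250744) had 20.7, 12.96, 18.2 and 20.2 CPM in CT and 19.1, 20.4, 16.1 and 16.7 CPM in GDNF, again with CT replicate 2 the lowest. The log2 fold change was 0.0049 (-0.37 to 0.38), and -0.12 without CT replicate 2. RYK has 1 annotated pseudogene named after it. ROR2, a receptor of WNT5A, had a mean of 0.753 ± 0.224 CPM in CT, beside 0.745 ± 0.329 CPM in GDNF, and ROR1 had 61 counts in all.

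Among the DKK and SFRP genes, DKK3 (ENSG00000050165, chromosome 11, 11963106 to 12009769) had by far the highest level. DKK3 is a divergent member of its family that, unlike DKK1, is not an established inhibitor of LRP5 and LRP6. It had 484, 515, 556 and 490.4 CPM in CT and 487, 471, 576 and 549 CPM in GDNF. The groups overlapped throughout, and CT replicate 2 lay within the range of the other CT libraries. The log2 fold change was 0.03 (-0.22 to 0.27), and also 0.03 without CT replicate 2. Per kb DKK3 averaged 102 ± 7.77 CPM and made up 88.7% to 91.5% of the summed DKK and SFRP level. That share is of RNA and not of inhibitory activity. Together with SFRP1, at 9.35 CPM per kb, DKK3 made up 97.6% to 98.5%.

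SFRP1, a secreted protein that binds WNT ligands (chromosome 8, 41261958 to 41309497), had 47.1, 42.7, 40.1 and 42.5 CPM in CT and 44.3, 42.2, 48.1 and 49.2 CPM in GDNF. The GDNF libraries reached slightly higher, within overlapping ranges, and the log2 fold change was 0.09 (-0.17 to 0.35), and also 0.09 without CT replicate 2. SFRP5 averaged 1.23 ± 0.227 and 1.06 ± 0.121 CPM, SFRP4 0.390 ± 0.133 and 0.295 ± 0.101 CPM, and SFRP2 had 22 counts in all.

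DKK1, the classical inhibitor of LRP5 and LRP6 and itself induced by beta-catenin, was scarce. The gene (chromosome 10, 52314296 to 52318042) had 1.61, 1.23, 1.04 and 2.08 CPM in CT and 1.40, 0.942, 1.04 and 0.945 CPM in GDNF. The 2 highest libraries were CT replicates 4 and 1, and the groups overlapped. Its p was the smallest of the 33 tested genes, 0.114 in edgeR (adjusted p = 0.9999), with a log2 fold change of -0.46 (-1.05 to 0.13). With each library left out in turn that value ran from -0.61 to -0.26, with -0.54 without CT replicate 2 and the smallest change, -0.26 with an unadjusted edgeR p of 0.370, without CT replicate 4. With limma-voom and quality weights its unadjusted p was 0.0369 and its log2 fold change -0.54, again without passing over all genes. DKK1 overlaps the antisense gene PRKG1-AS1 over 9.61% of its exonic bases. DKK2 had a mean of 2.76 ± 0.664 CPM in CT, beside 2.90 ± 0.331 CPM in GDNF.

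Of the R-spondins, RSPO4 (chromosome 20, 958452 to 1002264) had 2.94, 4.29, 2.11 and 2.33 CPM in CT and 2.79, 3.00, 3.76 and 3.51 CPM in GDNF. CT held both the highest and the lowest libraries. Its log2 fold change was 0.16 (-0.35 to 0.68), and with each library left out it ran from 0.035 without CT replicate 3 to 0.41 without CT replicate 2. The unadjusted edgeR p of the former was 0.885 and that of the latter 0.0468, which did not pass over all genes. The fold change was 0.067 without CT replicate 4 and 0.09 without GDNF replicate 3. RSPO2 averaged 3.00 ± 1.10 and 3.47 ± 0.380 CPM (log2 fold change 0.20). With each library left out its value ran from 0.10 without CT replicate 3 to 0.50 without CT replicate 1, where an unadjusted edgeR p of 0.0215 did not pass either. It was 0.13 without CT replicate 2, CT replicate 4 or GDNF replicate 3, and 0.026 with limma-voom. RSPO1 and RSPO3 had 21 and 14 counts in all.

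Over the 33 tested genes, edgeR called 0 higher and 0 lower in GDNF at a false discovery rate of 0.05, where 0% of 19999 genes were called in either direction. No tested gene of the set had an unadjusted p under 0.05 in edgeR, against 176 of 19999 genes (0.88%). In DESeq2 0 of the 33 and 151 of all genes had one, and in limma-voom 1 of the 33 and 837 of all genes, with 0 genes past the threshold in each tool. Without a filter on low counts, 2 of the 46 genes and 1024 of 40414 genes had one in edgeR, again with 0 past the threshold. The 2 were among the 13 genes that had no more than 12 counts in any library. Groups did not overlap for 0 of the 33 genes, against 0.93% of all tested genes (0.305% with GDNF higher and 0.625% with GDNF lower). Of the 33, 16 had a positive and 17 a negative log2 fold change, with a median of -0.021 (0.03 without CT replicate 2), beside a median of -0.0098 over all genes tested. By role, 5 of 12 tested ligands, 4 of 9 frizzleds, 1 of 2 co-receptors, 1 of 2 alternative receptors, 2 of 3 DKK genes, 1 of 3 SFRP genes and 2 of 2 R-spondins had a positive value. For 24 of the 25 genes of at least 1 CPM the confidence interval lay within 2-fold either way (96.4% of all genes at that level), and for 14 within 1.5-fold (65.2% of all genes).

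**Figure D3:**
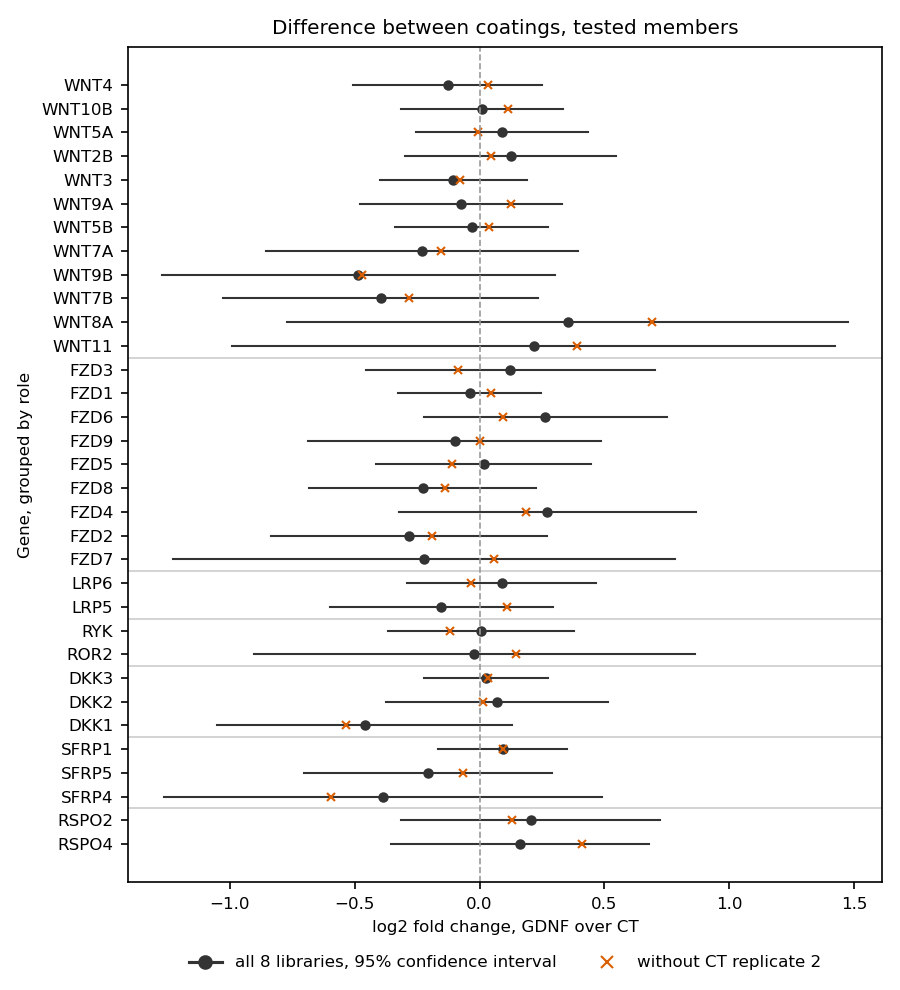
Log2 fold change of GDNF over CT for the 33 tested genes, grouped by role; points and bars are edgeR estimates with 95% confidence intervals from 8 libraries, and crosses are the estimates without CT replicate 2. Every interval includes 0, and the estimates range from -0.48 to 0.35.

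The deviation of CT replicate 2 followed base composition in these genes as in others. Over the 25 genes of at least 1 CPM, transcript GC content ran from 34.9% in FZD3 to 68.4% in FZD9. Across them, GC content and the log2 difference of CT replicate 2 from the mean of the other CT libraries had a Pearson correlation of 0.867, a description of 25 genes that share the same libraries. For 16078 genes of at least 1 CPM the same correlation was 0.823. CT replicate 2 was above the mean of the other CT libraries for 10 of 10 genes with over 55% GC and below that mean for 8 of 8 genes with under 45% GC. The extremes were LRP5, at 0.84 above, and FZD3, at 1.15 below on the log2 scale (-1.15). CT replicate 2 was the highest of 8 libraries for 9 of the 25 genes and the lowest for 7, together 64.0%, beside 77.9% of all genes at that level.

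The spread within CT was smaller without this library. Over the 25 genes, the SD of log2 CPM was larger in CT than in GDNF for 21 genes, with medians of 0.303 and 0.154. Without CT replicate 2 it was larger in CT for 11 genes, with a CT median of 0.152. The shares over all genes of at least 1 CPM were 83.1% and 40.1%. Adjustment for GC content and length lowered the median SD over 8 libraries from 0.232 to 0.154 for the 25 genes. The SD rose for DKK3 (0.109 to 0.138), FZD1 (0.140 to 0.154), SFRP1 (0.104 to 0.113), FZD5, WNT3 and WNT5B. After adjustment, the correlation of GC content with the difference of CT replicate 2 from the other CT libraries was -0.43 over the 25 genes. Over all genes of at least 1 CPM it was 0.0042. The adjustment is fitted to each library's own trend across genes, so that value is set by the fit. The lower median SD is likewise not independent of the fit. Each library was also set against the mean of the other 7, before adjustment. Over the 25 genes, the correlation of that deviation with GC content was 0.876 for CT replicate 2 and 0.679 for GDNF replicate 4. It was negative, from -0.59 to -0.80, in CT replicates 1 and 4 and GDNF replicates 1 and 2. In CT replicate 3 it was 0.36 and in GDNF replicate 3 it was 0.14. For every library but CT replicate 2 the mean includes CT replicate 2, so these values are not independent of it.

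**Figure D4:**
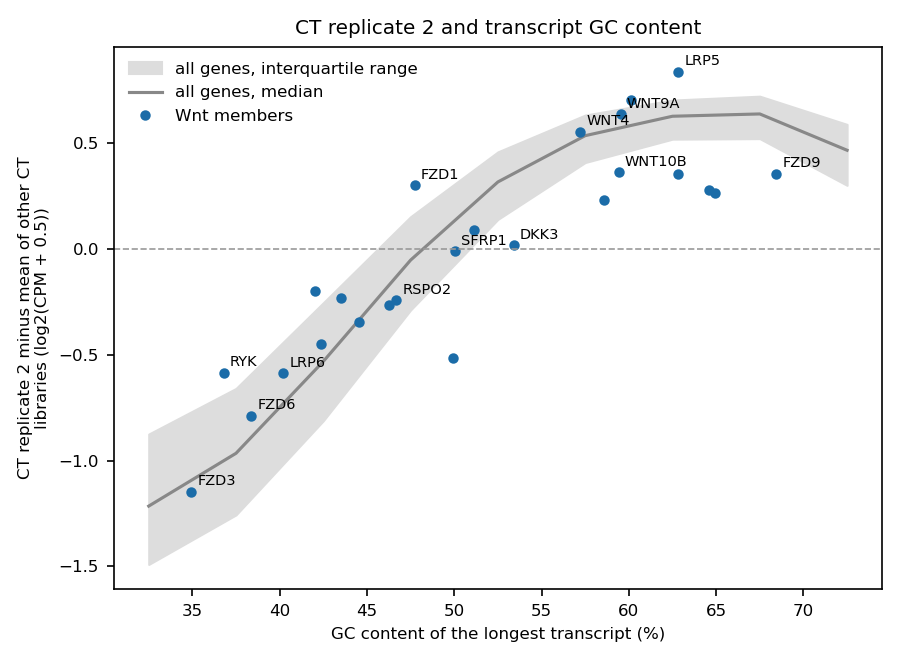
Difference of CT replicate 2 from the mean of the other CT libraries, in log2(CPM + 0.5), against the GC content of the longest annotated transcript; blue points are the 25 genes of at least 1 CPM, the line and band are the median and interquartile range of all genes in bins of 5 percentage points. FZD3 lies at -1.15 and LRP5 at 0.84, and DKK3 lies near 0.

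The rest of the pathway was described with 5 lists of 117 distinct genes, of which 98 were tested and 0 passed in either direction. Of 15 tested genes of WNT secretion and extracellular control, 8 had positive and 7 negative fold changes (median 0.03, and 0.05 without CT replicate 2). WLS, the carrier that brings WNT ligands to the cell surface, had a mean of 139 ± 5.73 CPM in CT, beside 135 ± 8.16 CPM in GDNF. ATP6AP2, a proton pump subunit that also binds LRP6, averaged 80.5 ± 18.6 and 82.3 ± 5.57 CPM. GPC4, a heparan sulphate proteoglycan, ranked first by p in this list, with 2.72 ± 0.473 and 3.51 ± 0.378 CPM (log2 fold change 0.37, -0.022 to 0.76).

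Of 30 genes that transmit the signal from the receptor to beta-catenin, 12 had positive and 18 negative fold changes (median -0.023, and 0.011 without CT replicate 2). APC2, a neuronal component of the complex that degrades beta-catenin, averaged 821 ± 199 and 819 ± 179.5 CPM, and the kinase CSNK1E 405 ± 102 and 357 ± 26.1 CPM. The adaptor DVL2, which frizzleds recruit, ranked first by p there, with 42.2 ± 11.5 and 36.7 ± 2.65 CPM. Without CT replicate 2, its log2 fold change moved from -0.20 to 0.014 and that of CSNK1E from -0.18 to 0.0080.

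Among TCF factors and their partners, 3 of 15 tested genes had positive and 12 negative fold changes (median -0.044, and 0.06 without CT replicate 2). The coactivator CREBBP averaged 251 ± 32.7 and 243 ± 5.80 CPM and the corepressor CTBP1 249.3 ± 44.2 and 239.8 ± 18.1 CPM. TCF7L1, a mostly repressive TCF factor, was the 1 gene of the 98 whose groups did not overlap, a share to be read beside the 0.93% of all tested genes. It had 1.68, 2.33, 1.73 and 1.32 CPM in CT and 0.884, 1.17, 0.940 and 1.25 CPM in GDNF. Its log2 fold change was -0.73 (-1.25 to -0.21), and -0.56 without CT replicate 2, with an edgeR p of 0.0106 before and an adjusted p of 0.9999 after adjustment.

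Of 18 tested target genes of beta-catenin, 8 had positive and 10 negative fold changes (median -0.024, against 0.05 without CT replicate 2 and 0.03 with GC and length offsets). EN1, also a midbrain transcription factor, averaged 176 ± 24.1 and 174 ± 21.7 CPM, and the WNT inhibitor APCDD1 57.2 ± 9.36 and 55.5 ± 5.76 CPM. Of 29 tested genes of the planar polarity and calcium branches, 17 had positive and 12 negative fold changes (median 0.02, and -0.013 without CT replicate 2). VANGL2 and CELSR3, membrane proteins of planar polarity, averaged 508 ± 54.3 and 483 ± 27.2 CPM, and 345 ± 87.2 and 325 ± 19.2 CPM. The calcium-regulated factor NFATC3 had the smallest p of that list, at 7.91 ± 1.86 and 6.65 ± 0.906 CPM.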

How the data were processed

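The deposited values are raw counts per Ensembl gene, 1 column for each of 8 libraries, not normalized by the authors. FastQC, cutadapt, STAR, HTSeq and DESeq2 are named with the GRCh38 build, per the submitters' processing notes. Tool versions, strand setting, annotation release and multi-mapping rule: not given in the sources used here. The RNA was polyA-selected with a TruSeq mRNA kit, per the labels' protocols. A low-count filter (filterByExpr with its minimum count at 10 and minimum total at 15) passed 19999 genes. GDNF was compared with CT in edgeR 4.0.16 under R 4.3.3 by its quasi-likelihood test, with TMM scaling, robust dispersions and group as the only term. P values are two-sided with Benjamini-Hochberg adjustment over all genes at 0.05. CPM use TMM-scaled totals. Exonic length and the GC content of the longest transcript come from GENCODE release 29, whose positions match the deposited ones for 45 of the 46 genes (not WNT2). Alternatives used DESeq2 1.42.0, limma 3.58.1 and offsets from a smooth (mgcv 1.9.3) of each library's deviation on GC content and length. The edgeR, DESeq2 and limma-voom fits and the GC adjustment were tested on simulated data. For the fits, counts were drawn independently for each gene, without a GC trend such as that of CT replicate 2. They cannot show how the fits behave under that trend. The 46 genes were defined by symbol and biotype, without use of their counts. Earlier results of these data were known when the lists and the genes to describe were chosen. Values in every library are given for genes of at least 1 CPM that lead their role per kb (2 ligands, 3 frizzleds, LRP5 and LRP6, 1 each of DKK, SFRP and RSPO, up to 2 of ROR1, ROR2 and RYK), have 1 of the 3 smallest p values or have groups that do not overlap. Of each list, the 2 genes of highest CPM and the gene with the smallest p are named, except 1 gene that is not reported here. All 46 genes are named.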

Additional observations from a re-analysis of the deposited data

Results flagged for a closer look

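Of 66 groups of 4 libraries, 2 held a single distant library, and by chance about 1 in 20 groups would. RSPO2 had 4.65 CPM in CT replicate 1, while CT replicates 2 to 4 had 2.35 to 2.52 CPM. ROR2 had 0.257 CPM in GDNF replicate 2, while GDNF replicates 1, 3 and 4 had 0.839 to 0.945 CPM.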

How the results depend on the processing

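In the 10 other settings and with each of the 8 libraries left out, 0 genes passed, the Wnt genes included. With the replicate block, 0 of 33 Wnt genes and 0 of all genes passed, and 112 genes had an unadjusted p under 0.05. That number was 176 in the reported fit, 118 to 391 with 1 library left out (317 without CT replicate 1, 391 without CT replicate 2), 349 with GC and length offsets, 328 with the block added, 433 with the offsets and without CT replicate 2, 1024 without a filter and 80 with a filter of 1 CPM in 4 libraries. Correlations of same-numbered deviations were 0.401, -0.414, 0.231 and -0.567. The deviations were not adjusted for GC content, so they cannot decide whether same-numbered libraries belong together. The labels state no pairing, and the block is given here only. The median of the tested Wnt genes ranged from -0.069 to 0.03. The order by level kept a Spearman correlation of 0.929 without division by length and 0.998 without CT replicate 2. Since every interval of the reported fit included 0, the signs below are not read as directions, and the cause of their change was not tested. With limma-voom DKK3 was -0.0073, DKK2 -0.034, RYK -0.071, LRP5 0.041, FZD3 -0.062, FZD5 -0.20, WNT9A 0.14 and WNT3 0.0067. With GC and length offsets DKK2 was -0.0081, RYK -0.15, ROR2 0.052, LRP6 -0.030, WNT9A 0.040 and WNT5B 0.045, and with the block added RYK -0.15, LRP6 -0.029, WNT9A 0.037 and WNT5B 0.051. With the offsets and without CT replicate 2, chosen after seeing the data, DKK3 was -0.012, RYK -0.018, ROR2 0.066, FZD1 0.030, FZD5 -0.14, FZD7 0.018 and WNT9A 0.063. Leaving out 1 library changed the sign of 29 of 264 values, in 17 genes, and 13 of the 29 arose without CT replicate 2. The ranges were DKK2 -0.037 to 0.23, DKK3 -0.025 to 0.072, FZD1 -0.085 to 0.046, FZD3 -0.087 to 0.27, FZD5 -0.11 to 0.10, FZD7 -0.60 to 0.059, FZD9 -0.26 to 0.080, LRP5 -0.26 to 0.11, LRP6 -0.033 to 0.18, ROR2 -0.19 to 0.27, RYK -0.12 to 0.080, WNT10B -0.065 to 0.11, WNT11 -0.13 to 0.66, WNT4 -0.21 to 0.033, WNT5A -0.0065 to 0.16, WNT5B -0.079 to 0.038 and WNT9A -0.17 to 0.13. Depth limits the 13 genes that were not tested and the 8 tested ones under 1 CPM.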
